A study of Mus musculus with 8 samples.

Results

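The translatome of wild-type naive CD4+ T cells was described from 2 ribosome footprint libraries, WT 1 and WT 2, out of 8 samples in the series, which also holds input RNA libraries and libraries of Mettl3 KO cells. Both came from wild-type C57BL/6 mice, and 50000000 naive T cells were exposed for 1 min to 0.1 mg/ml cycloheximide, which stalls ribosomes on mRNA. Footprint libraries were made with the TruSeq Ribo Profile kit and amplified for 9 PCR cycles. Age, sex, and whether the duplicates came from separate animals are not given in the labels, so the spread between them may be technical. Every gene of the deposited table was taken except 1201 small RNA symbols (snoRNA, scaRNA, miRNA, and small nuclear, Y and 7S RNA), which left 21955 of 23156 genes. No other group entered the description and no test was made.

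A ribosome covers a short stretch of mRNA and protects it from nuclease, so sequencing these fragments shows which mRNAs are under translation. Naive CD4+ T cells have not yet met antigen. They circulate through lymphoid organs in a resting, non-dividing state that depends on interleukin 7 and on weak signals through the T cell receptor, and they have not chosen a helper lineage. Levels are given as FPKM, the fragments of a gene scaled to its length and to the size of the library, always for WT 1 and then WT 2. A level is thus a density of footprints per length. Comparison between genes is approximate, because the length is that of the whole gene model while footprints lie on coding sequence. How reads that match several gene copies were assigned is also not given. The input RNA was not analysed here, so a high level can reflect much mRNA or dense ribosomes on it. In these bulk samples, fewer cells of a type and less RNA per cell cannot be told apart.

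The defining genes of the cell type were high in both libraries. Cd4, the coreceptor for class II MHC (chromosome 6, 124864692 to 124888221, GRCm38), had 94.6 and 97.1 FPKM (95.9 ± 1.74, SD, n = 2). Il7r, the interleukin 7 receptor chain (chromosome 15, 9505788 to 9530176), had 109 and 95.9 FPKM (103 ± 9.32, SD, n = 2). Ets1, a transcription factor of resting lymphocytes (chromosome 9, 32636221 to 32757820), had 277 and 323 FPKM (299.7 ± 32.8, SD, n = 2), and Ptprc, which encodes CD45 (chromosome 1, 138062861 to 138175708), had 359 and 375 FPKM (367 ± 11.5, SD, n = 2). All 4 genes were far above the median of protein-coding genes, 0.384 and 0.398 FPKM, in both libraries. CD8 chains were lower, with Cd8a at 0.551 and 0.450 FPKM and Cd8b1 at 0.576 and 1.96 FPKM.

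Depth was estimated from the size of 1 read as 5700000 reads in WT 1 and 3410000 reads in WT 2, so that 1 FPKM on a transcript of 1 kb is worth about 5.70 reads in WT 1 and 3.41 reads in WT 2. Footprints reached 1 FPKM in both libraries at 8823 genes, 40.2% of those in the table, and at 8594 of 20354 protein-coding genes (42.2%). At 11000 protein-coding genes (54%) both libraries were below 1 FPKM, and at 6484 (31.9%) both were listed at 0. The libraries were compared over the 9286 genes whose average reached 1 FPKM, on the log2(FPKM + 1) scale. Pearson's r across these genes, which are not independent replicates, was 0.971, the median absolute log2 ratio was 0.19, and 194 genes (2.09%) differed by more than 2-fold. The spread narrowed with level, to a median of 0.13 among the 326 genes at 100 FPKM or more.

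The highest entry was a noncoding RNA. Rmrp, the RNA of the RNase MRP complex that processes ribosomal RNA, had 153170 and 111815 FPKM, which was 28.9% and 22.3% of the summed FPKM. Rpph1, the RNA of the related RNase P, had 12129 and 13695 FPKM. Neither RNA codes for protein, and protein-coding genes held 67.9% and 74.2% of the sum. Shares below are therefore given over protein-coding genes unless stated otherwise.

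Among protein-coding genes the density was concentrated in few. The highest gene alone held 6.14% and 6.05%, the 10 highest held 25.8% and 26.5%, and the 100 highest held 60.8% and 60.4%. It took 40 and 41 genes to reach 50% of the sum, and 2539 and 2582 genes to reach 90%. At the other end, 5479 and 5473 genes lay between 1 and 10 FPKM and together held 6.68% and 6.54%. When each FPKM was multiplied by the annotated transcript length, which estimates the share of reads and not of density, 364 genes were needed for 50% of the mean.

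**Figure D1:**
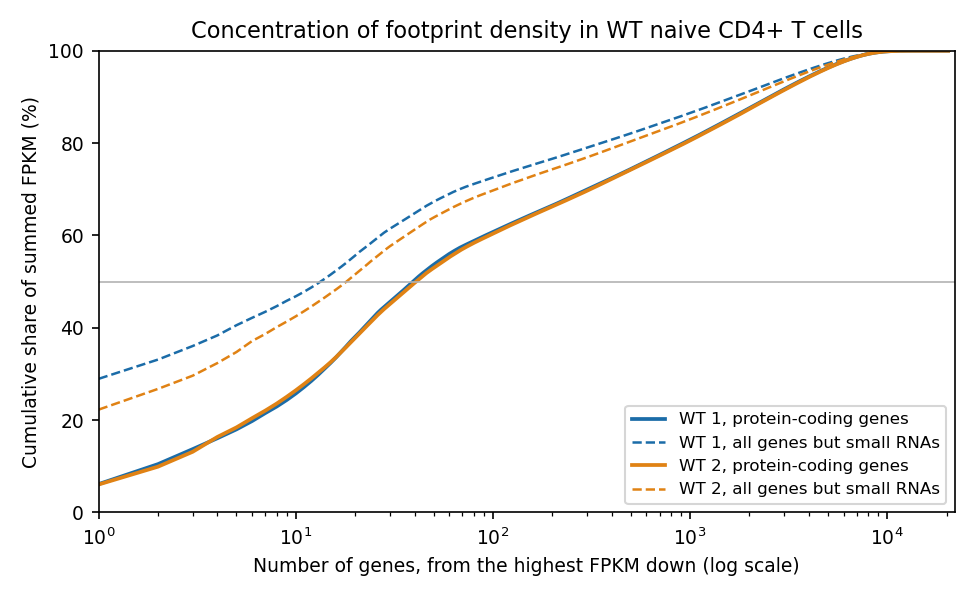
Cumulative share of summed FPKM (vertical axis, percent) against the number of genes taken from the highest down (horizontal axis, log scale), for WT 1 and WT 2. Solid lines cover protein-coding genes and cross 50% at 40 and 41 genes; dashed lines cover all genes but small RNAs and start at 28.9% and 22.3% with Rmrp.

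Cytosolic ribosomal proteins were the leading class. Their 86 listed genes held 51.3% and 50.9% of the density over protein-coding genes (51.1% ± 0.297, SD, n = 2), and 34.9% and 37.7% of the sum with noncoding genes included. As an estimated share of reads from protein-coding genes they held 24.4%. They made up 23 of the 25 highest protein-coding genes and 59 of the 100 highest. The 34 small-subunit genes held 28.8% and 28.3%, and the 52 large-subunit genes held 22.5% and 22.6%.

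Levels within the ribosomal proteins were far from equal, although the proteins are built into the ribosome in equal numbers, apart from the stalk proteins. Rplp1, an acidic protein of the stalk (chromosome 9, 61913284 to 61914542), was the highest protein-coding gene with 22058 and 22538 FPKM. Rps29 (chromosome 12, 69157722 to 69159186) had 15548 and 14375 FPKM and Rps18 had 11683 and 11934 FPKM. These are small-subunit proteins, and both libraries placed them directly below Rplp1 with the exception of Rps27rt, which stood above Rps18 in WT 2. Of the 86 genes, 38 reached 1000 FPKM in both libraries, and the 5 highest held 35.5% of the total of the 82 members at or above 1 FPKM in both.

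Some ribosomal protein genes were low against the medians of 869 and 903 FPKM over those 82 members. Rps27 had 5.27 and 6.26 FPKM, whereas Rps27rt, annotated as a retrotransposed copy of it, had 8484 and 12020.3 FPKM. Rps20 had 74.5 and 78.1 FPKM, and Rpl26 was listed at 0.00510 and 0.0151 FPKM, far below the value of 1 read. Rpl10l, Rpl39l and Rpl3l, paralogs known from testis or muscle, were below 1 FPKM in both libraries. Most ribosomal protein genes have processed copies elsewhere in the genome, and how reads that match several copies were assigned is not given in the sources used here, so levels of individual members are uncertain.

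Many mRNAs of the translation machinery begin with a terminal oligopyrimidine (TOP) tract, a C followed by further C or T bases, through which growth signals control their translation. A tract was counted where a C followed by at least 4 C or T bases began within 5 bases of the RefSeq start (GRCm38.p6), on the strand of the transcript. It was found at 30 of the 61 ribosomal protein genes with a promoter entry (49.2%), at 33 of 77 among the 100 highest genes (42.9%), and at 1655 of 6906 among all protein-coding genes at or above 1 FPKM in both libraries (24%). With the tract required to begin at the annotated start itself, the shares were 24.6%, 14.3% and 3.03%. Outside the ribosomal proteins, the 100 highest genes had 22 of 78 with a tract (28.2%), and the list of elongation, termination and associated genes had 3 of 12 (25%). With 6 or more C or T bases required after the C, the shares were 37.7% for ribosomal proteins, 14.1% for the 100 highest others, 16.7% for that list and 8.5% for all genes. A gene with several annotated starts was counted if any of them matched, so such genes had more chances to be counted. Annotated starts can lie some bases from the start used in T cells, and a match is only a description of these letters.

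Start windows were read for 9 ribosomal protein genes and 12 other abundant genes, each from 10 bases before the annotated start to 15 bases from it on. A tract that began close enough to the start to be counted by the rule above was present at 3 of the 9 and at 4 of the 12. Coro1a was counted among the 4 although another of its annotated starts held no tract. The genes were not drawn by a stated rule, so these counts are examples and do not compare the sets. The full count above gave 49.2% for ribosomal proteins and 24% for all protein-coding genes at or above 1 FPKM in both libraries. The windows below show both kinds in both sets, with the counted tract in capitals. Runs of C and T bases further from the start, as at the end of the Rps12 window, were not counted and stand in lower case. Rps18, Rpl12, Rps16 and Rps12 encode ribosomal proteins, and only Rps18 and Rpl12 of these held a counted tract. Eef1a1, the elongation factor that brings aminoacyl-tRNA to the ribosome, and Btg1, an antiproliferative gene, held a tract, while Tmsb4x, Gimap4 and Il7r did not.
Rps18 (minus strand, chr17:33955651-33955675): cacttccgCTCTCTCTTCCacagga
Rpl12 (plus strand, chr2:32961702-32961726): agcaggatccgtCTTTTCggctttc
Rps16 (plus strand, chr7:28350679-28350703): ttctgtcgtgacgtagcactcaatg
Rps12 (minus strand, chr10:23787195-23787219): tcatgcggccaccgccggccttttc
Eef1a1 (minus strand, chr9:78481710-78481734): ctccgCCCTCTTCCCgagggtgggg
Btg1 (plus strand, chr10:96616991-96617015): cggcggcggcagCTCTTCgcccctc
Tmsb4x (minus strand, chrX:167209204-167209228): tacgagtgacatcacctcatttgca
Gimap4 (plus strand, chr6:48684568-48684592): cttggtgtttagtattgtttcgaaa
Il7r (minus strand, chr15:9529862-9529886): atagttccctgtctgtggtttagca

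Abundant genes encoded short proteins. The longest annotated coding sequence of the 100 highest genes had a median of 183 codons, against 444 codons over the 8592 protein-coding genes at or above 1 FPKM in both libraries that have an annotated length. Without ribosomal proteins the medians were 204 codons for the 100 highest and 448 codons for all. Genes of under 100 codons had a median of 16.5 and 19.9 FPKM, and those of 800 codons or more had 6.46 and 6.83 FPKM. Because FPKM divides by the length of the whole gene model while footprints lie on coding sequence, the share of a transcript that codes for protein also moves these levels, and its part was not tested.

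**Figure D2:**
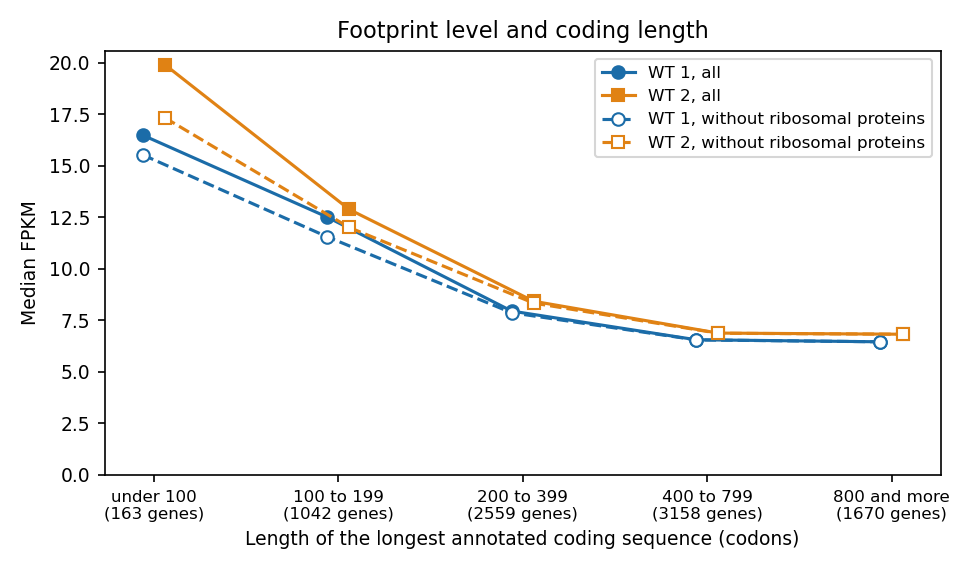
Median FPKM (vertical axis) of protein-coding genes at or above 1 FPKM in both libraries, by the length of their longest annotated coding sequence in codons (horizontal axis), for WT 1 and WT 2. Filled symbols cover all genes and open symbols leave out ribosomal proteins; medians run from 16.5 and 19.9 FPKM in the shortest genes to 6.46 and 6.83 FPKM in the longest.

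The next class after ribosomal proteins was the actin cytoskeleton. The 45 listed actin genes held 4.53% and 4.83% of the density. All 45 were at or above 1 FPKM in both libraries, beside 42.2% of all protein-coding genes. Tmsb4x, which encodes thymosin beta 4, the peptide that holds actin monomers in reserve, had 6912 and 7438 FPKM and was the highest gene outside the ribosomal proteins. Actb, the cytoplasmic beta actin, had 2163 and 2439 FPKM, and Coro1a, a coronin needed for the survival of naive T cells, had 1146 and 1384 FPKM. Tmsb10 followed with 1089 and 1289 FPKM and Arhgdib, which encodes a GDP dissociation inhibitor, with 672 and 777 FPKM.

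The list of 16 elongation, termination and associated genes held 2.03% and 2.30%. Of this, 6 members that are neither elongation nor termination factors (Tpt1, Rack1, Naca, Btf3, Serbp1 and Nacc1) held 0.780% and 0.956%, and the other 10 held 1.25% and 1.35%. Eef1a1 had 3021 and 3549 FPKM and Eef2, which moves the ribosome along the mRNA, had 878 and 876 FPKM. Tpt1, the translationally controlled tumour protein gene, had 1098 and 1631 FPKM, and Rack1, a scaffold on the small subunit, had 1193 and 1458 FPKM. Within this list the levels of Tpt1 and Rack1 overlapped across libraries. The 59 initiation factors and their regulators held less, 0.788% and 0.798%, led by Eif1 at 245 and 341 FPKM and Eif4a2 at 293 and 261 FPKM. The 22 listed genes of aminoacyl-tRNA synthetases and of their complex partners Aimp1 and Aimp2 were also read. All 22 were at or above 1 FPKM in both libraries, beside 42.2% of all protein-coding genes. They held 0.127% and 0.126%, with Dars highest at 69.7 and 73.3 FPKM.

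Further classes of the general machinery each held more than 1% in both libraries. The nuclear-encoded respiratory chain and ATP synthase held 1.67% and 1.67% over 85 genes, led by the ATP synthase subunit gene Atp5k at 771 and 685 FPKM. Chaperones held 1.54% and 1.24%, with the cyclophilin gene Ppia at 1246 and 1234 FPKM. Hspa8, the constitutive heat shock cognate protein, had 1514 and 945 FPKM and was higher in WT 1, as was the class. RNA processing genes held 1.07% and 1.10%, led by the splicing factor gene Srsf5 at 537 and 593 FPKM and the helicase gene Ddx5 at 449 and 454 FPKM. The 27 functional classes together, each gene counted 1 time, covered 962 protein-coding genes and 69.8% and 69.9% of the density. A further list of predicted genes with Gm numbers, drawn with the classes in the plot of class shares, added 471 protein-coding genes and little density.

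**Figure D3:**
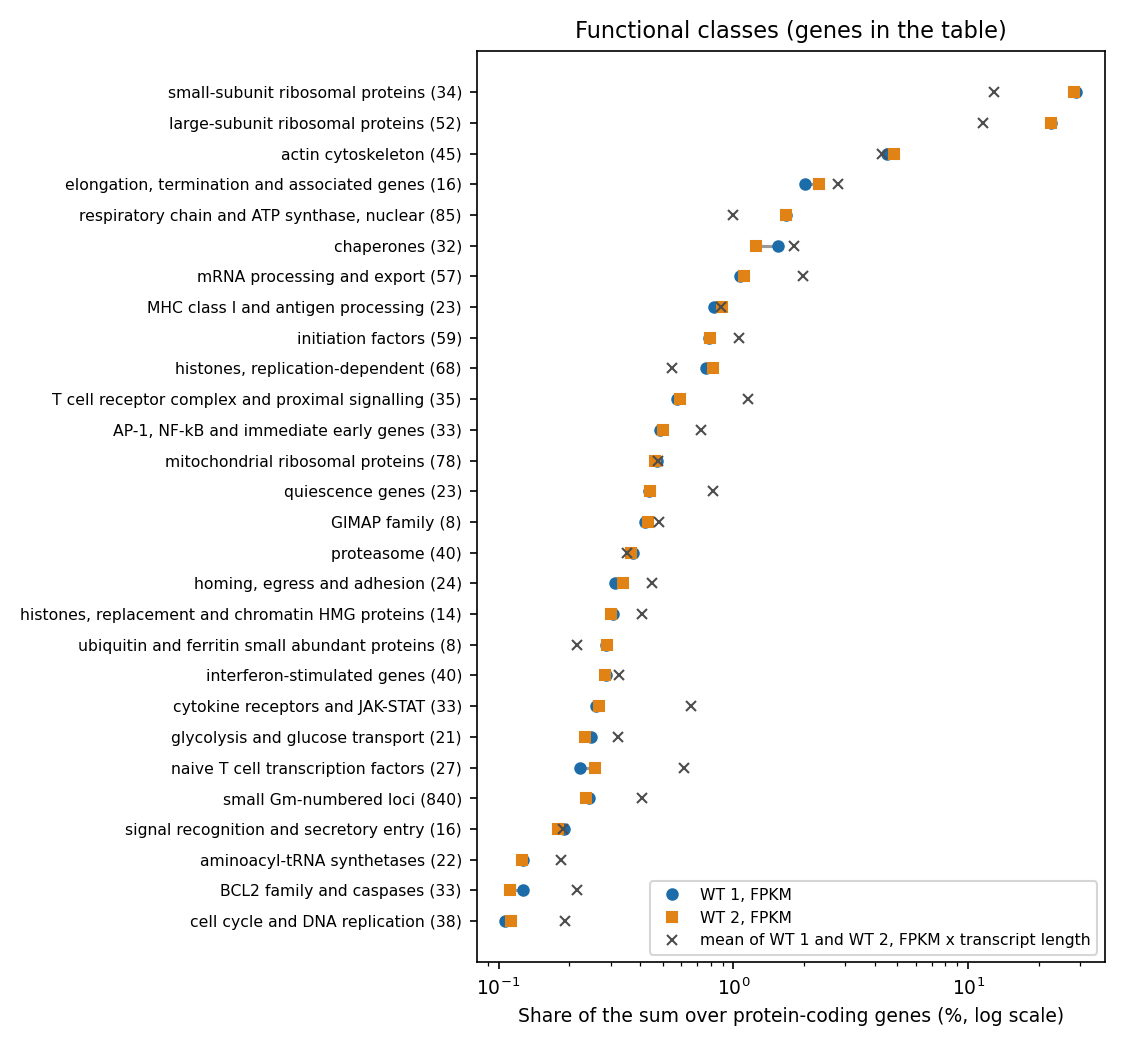
Share of the sum over protein-coding genes (horizontal axis, percent, log scale) held by each functional class, with the number of its genes in the table, for WT 1 (circles) and WT 2 (squares); crosses give the mean share after multiplying FPKM by transcript length. Ribosomal proteins lead at 28.8% and 28.3% (small subunit) and 22.5% and 22.6% (large subunit). By the mean of the libraries the cell cycle list is last, at 0.107% and 0.113%. In WT 2 the BCL2 family and caspases were slightly lower, at 0.112%.

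With transcript length taken into account the order of the smaller classes shifted towards genes with long transcripts. As an estimated share of reads over protein-coding genes, averaged over the libraries, the T cell receptor complex and its signalling held 1.15%, the quiescence genes 0.821%, the cytokine receptors and JAK-STAT genes 0.660% and the naive T cell transcription factors 0.618%. By density the same classes held between 0.223% and 0.592%. Small and large subunit ribosomal proteins held 12.9% and 11.5% by this measure and were still the leading classes.

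Genes of T cell recognition and residence formed smaller classes. The 35 genes of the T cell receptor complex and its proximal signalling held 0.575% and 0.592%. Of these, 34 were at or above 1 FPKM in both libraries, beside 42.2% of all protein-coding genes. The kinase gene Lck, which starts receptor signalling, had 178 and 191 FPKM. The CD3 chains were lower, with Cd3d at 18.6 and 22.1 FPKM, Cd3e at 18.9 and 23.3 FPKM and Cd3g at 42.2 and 66.4 FPKM, while Cd247, the zeta chain, had 75.1 and 100.0 FPKM. Genes of T cell receptor chains were not analysed here. Sh2d1a, the adaptor SAP, was listed at 0.000306 and 0.00276 FPKM, below the value of 1 read.

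The GIMAP GTPases, which support survival of resting lymphocytes, held 0.420% and 0.435% with 8 genes. Gimap4 had 1007 and 1076 FPKM and ranked with Actb and Coro1a among the 50 highest protein-coding genes. The other 7 ran from Gimap7 at 26.5 and 25.2 FPKM to Gimap3 at 142 and 156 FPKM. Class I MHC and its processing genes held 0.828% and 0.891%. H2-K1 had 816 and 851 FPKM and H2-D1 had 348 and 376 FPKM, while B2m, their shared light chain, had 114 and 152 FPKM. Class I heavy chain genes are close copies of each other, and H2-Q6 was listed at 1.17e-05 and 0.000246 FPKM, so the levels of its individual members are uncertain.

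Homing receptors of naive cells were high and the memory marker Cd44 was low. Ccr7, the receptor for lymph node chemokines, had 111 and 109 FPKM, and S1pr1, the receptor that guides egress, had 54.5 and 63.7 FPKM. Cd44, which antigen-experienced cells carry at a higher level, had 3.10 and 3.04 FPKM. The integrin gene Itgb7 had 142 and 145 FPKM. Of the alpha chains that can pair with it, Itga4 had 17.9 and 16.1 FPKM and Itgae had 0.439 and 0.215 FPKM. Among cytokine receptors and their signalling genes, Jak1 had 134 and 158 FPKM and Il2rg, the common gamma chain, had 56.6 and 63.2 FPKM. Il2ra, the high-affinity interleukin 2 receptor chain induced on activation, was below 1 FPKM at 0.597 and 0.829 FPKM.

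Several genes known to hold lymphocytes at rest were abundant. The 23 listed quiescence genes held 0.437% and 0.440%. Of these, 22 were at or above 1 FPKM in both libraries, beside 42.2% of all protein-coding genes. Txnip, a brake on glucose uptake, had 246 and 253 FPKM. The antiproliferative genes Btg1 and Btg2 had 244 and 222 FPKM and 135 and 139 FPKM, and Slfn2, a Schlafen gene required for quiescence of mouse T cells, had 124 and 141 FPKM. Foxj1 was listed at 0 in both libraries.

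Immediate early genes were also present in these resting cells. The AP-1, NF-kB and immediate early list held 0.486% and 0.502%. Junb had 395 and 408 FPKM, Jun had 131 and 173 FPKM and Fos had 56.3 and 87.4 FPKM. Cd69, a surface protein that appears early after stimulation and blocks egress, had 176 and 182 FPKM, close to Lck. Other members were at the floor, with Egr3 at 0.913 and 0.00168 FPKM and Ier3 at 0.180 and 0.294 FPKM. Myc, which drives growth on activation, had 7.42 and 10.6 FPKM.

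Genes of the cell cycle and DNA replication covered a wide range. Of 38 listed genes, 22 were at or above 1 FPKM in both libraries and 11 were below it in both, beside 42.2% and 54% of all protein-coding genes. The kinase gene Cdk4, which acts in the G1 phase, had 54.6 and 62.2 FPKM, its partner Ccnd2 had 48.2 and 46.3 FPKM, and the replication clamp gene Pcna had 50.4 and 54.0 FPKM. Below 1 FPKM were Mki67 at 0.599 and 0.925 FPKM, Ccnb1 at 0.453 and 0.617 FPKM and Cdk1 at 0.781 and 0.393 FPKM, and Top2a, a topoisomerase of dividing cells, had 2.87 and 3.33 FPKM. The list had medians of 1.91 and 2.75 FPKM.

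Glycolysis held 0.247% and 0.234% and was uneven along the pathway. Pkm, the last enzyme, had 265 and 260.1 FPKM, Pgk1 had 146 and 138 FPKM and Eno1 had 135 and 129 FPKM. Hk2, the hexokinase induced on activation, had 0.182 and 0.541 FPKM, and the glucose transporter genes Slc2a1 and Slc2a3 had 9.30 and 8.26 FPKM and 5.87 and 6.32 FPKM. Gapdh, which has many processed copies in the mouse genome, had 7.31 and 10.8 FPKM, so its level is uncertain. Replication-dependent histone genes, which are normally expressed in S phase, held 0.764% and 0.821% over 68 genes, many of them near-identical copies, led by Hist2h4 at 315 and 469 FPKM, and the replacement histone gene H3f3b had 311 and 322 FPKM.

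Interferon-stimulated genes had a basal level. Of the 40 listed, 37 were at or above 1 FPKM in both libraries, beside 42.2% of all protein-coding genes, with list medians of 13.8 and 14.1 FPKM. Ifi27l2a had 335 and 361 FPKM and Irf1, a transcription factor of the interferon response, had 105 and 97.2 FPKM. Among survival genes, Mcl1 had 159 and 118 FPKM and Bcl2 had 18.8 and 19.3 FPKM, while the death-promoting gene Hrk had 0.00155 and 0.0851 FPKM.

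Transcription factors listed for the naive T cell were all present. All 27 were at or above 1 FPKM in both libraries, beside 42.2% of all protein-coding genes, with medians of 17.9 and 20.2 FPKM. Below Ets1 came Tcf7, which encodes TCF-1, at 76.2 and 131 FPKM, and Elf1, another ETS family member, at 48.2 and 50.1 FPKM. Satb1, a chromatin organiser, had 44.3 and 49.6 FPKM, Lef1, a relative of TCF-1, had 33.2 and 41.7 FPKM, and Ikzf1, which encodes Ikaros, had 28.7 and 34.1 FPKM. Tcf7 did not overlap Elf1, whereas Elf1 overlapped Satb1 and Lef1 overlapped Ikzf1. Zbtb7b, which encodes ThPOK and commits cells to the CD4 lineage, had 25.2 and 27.5 FPKM, and Runx3, its counterpart in the CD8 lineage, had 1.28 and 1.91 FPKM.

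Regulators of the helper lineages formed a graded series. Gata3, needed for CD4 T cells and for type 2 helpers, had 5.27 and 5.51 FPKM. Foxp3, the regulator of regulatory T cells, had 2.15 and 2.32 FPKM. Tbx21, which encodes T-bet of type 1 helpers, had 0.544 and 0.777 FPKM. Bcl6 of follicular helpers had 0.0568 and 0.471 FPKM. The libraries did not overlap between any of these neighbours in the order. The signal transducers that act with these factors were higher, with Stat6 at 28.8 and 30.4 FPKM, Stat4 at 22.2 and 25.7 FPKM and Stat3 at 17.5 and 19.3 FPKM.

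**Figure D4:**
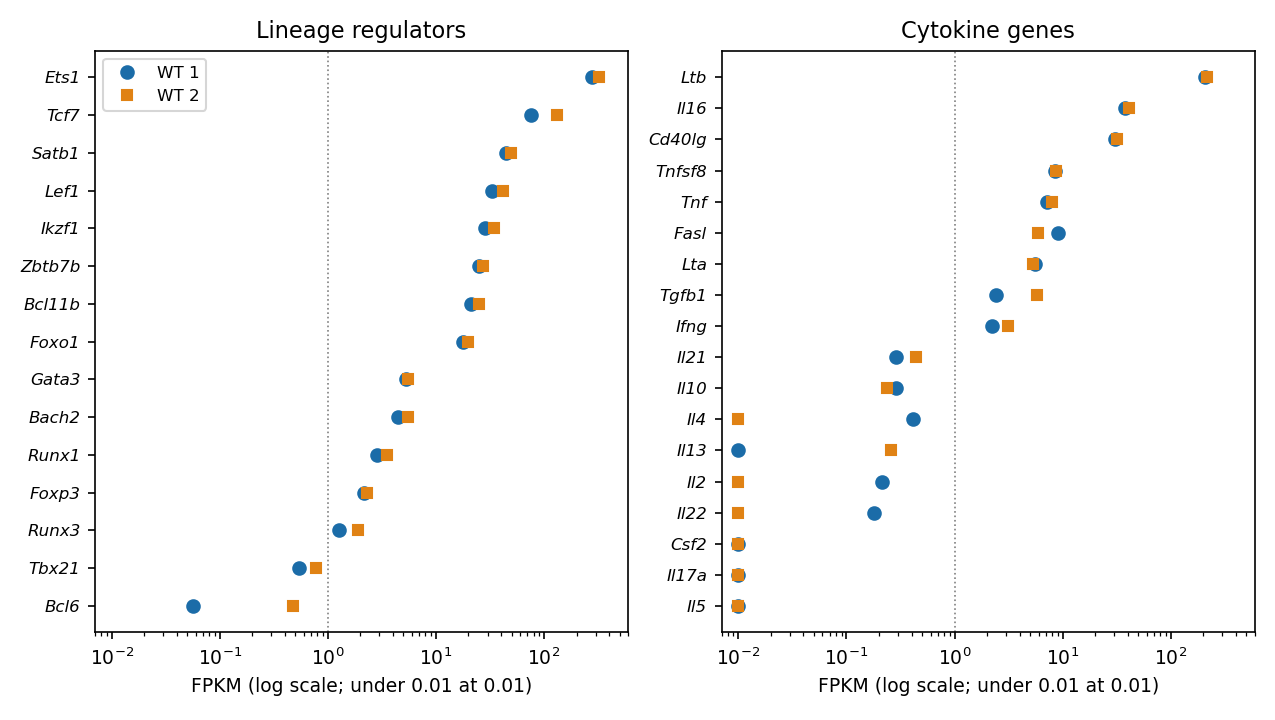
FPKM (horizontal axes, log scale, values under 0.01 drawn at 0.01) of lineage regulators (left) and of cytokine genes (right) in WT 1 (circles) and WT 2 (squares), with a dotted line at 1 FPKM. Regulators run from Ets1 at 277 and 323 FPKM to Bcl6 at 0.0568 and 0.471 FPKM, and among cytokines Ltb is highest while Il5, Il17a and Csf2 are at 0 in both libraries.

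Cytokine genes divided into silent ones, meaning below 1 FPKM in both libraries, and present ones. Of 25 listed, 13 were silent, which is near the share of all protein-coding genes (54%), and 6 of those were listed at 0 in both. These were Il3, Il5, Il9, Il17a, Il17f and Csf2. Il2, the growth factor of activated T cells, had 0.215 and 0 FPKM, Il4 had 0.416 and 0 FPKM and Il21 had 0.284 and 0.438 FPKM. Membrane-bound and constitutive members were present, with lymphotoxin beta, Ltb, at 208 and 219 FPKM, Il16 at 38.1 and 40.8 FPKM and Cd40lg, which encodes the help signal for B cells, at 30.3 and 31.9 FPKM. Tnf had 7.15 and 8.0 FPKM and Ifng, the main cytokine of type 1 helpers, had 2.22 and 3.10 FPKM.

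The lists of each helper program, which include the regulators and signal transducers above, were then counted. Of all protein-coding genes 42.2% reached 1 FPKM in both libraries, and most of these lists lay near that share. In the regulatory program 7 of 17 genes were at or above 1 FPKM in both libraries, among them Capg, an actin-capping protein gene, at 33.3 and 29.5 FPKM, Tnfrsf18, which encodes GITR, at 17.5 and 19.9 FPKM, Izumo1r, which encodes folate receptor 4, at 15.6 and 16.9 FPKM and Ctla4 at 3.55 and 4.19 FPKM. In the type 1 program 7 of 14 passed, with Il18r1 at 17.1 and 13.6 FPKM and Cxcr3 at 2.95 and 4.26 FPKM. In the type 2 program 5 of 14 passed, with Crlf2 at 19.7 and 27.1 FPKM. In the type 17 program 3 of 14 passed, led by Batf at 26.4 and 22.7 FPKM. In the follicular program 7 of 13 passed, with Btla at 18.6 and 21.0 FPKM and Cxcr5 at 2.45 and 2.27 FPKM. Of the list of activation and exhaustion genes, 15 of 23 were at or above 1 FPKM in both libraries and 6 were below it. Among its inhibitory receptors Tigit had 2.69 and 2.07 FPKM and Ctla4 was present as above, whereas the others were below 1 FPKM, with Pdcd1 at 0.647 and 0.151 FPKM, Havcr2 at 0.386 and 0.00517 FPKM and Lag3 at 0.308 and 0.931 FPKM.

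Markers of other cell types were then read. The 20 T cell identity genes were all at or above 1 FPKM in both libraries, beside 42.2% of all protein-coding genes. Cd3d was the lowest of them, and they summed to 1897 and 2132 FPKM. Of 267 markers of other cell types, 198 (74.2%) were silent and 105 (39.3%) were listed at 0 in both libraries, beside 54% and 31.9% of all protein-coding genes. By origin, 111 of 118 markers of non-blood tissues were silent (94.1%), against 87 of 149 markers of other blood cells (58.4%), which is near the share of all genes.

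Non-blood tissues were silent with few exceptions. All 16 fibroblast and stroma genes and all 16 germline genes were below 1 FPKM in both libraries. Of the hepatocyte genes 13 of 16 were listed at 0, including Alb, and Cyp2e1 had 3.59 and 7.39 FPKM. Among neuronal and glial genes, Mbp had 32.0 and 35.1 FPKM. The Mbp gene also encodes golli proteins that T cells make. Pecam1, which endothelium and lymphocytes share, had 28.6 and 32.1 FPKM, while the endothelial cadherin gene Cdh5 had 0.169 and 0.0690 FPKM.

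Of 149 markers of other blood cells, 136 were below 10 FPKM in both libraries. Whether T cells or other cells carry these markers was not tested. The 14 dendritic cell genes had the highest sum of these lists, 285 and 245 FPKM. Of them 7 were at or above 1 FPKM in both libraries, beside 42.2% of all protein-coding genes. Ccr7, also a homing receptor of naive T cells, had 111 and 109 FPKM. H2-Eb1 had 32.7 and 23.8 FPKM, Bst2 had 30.0 and 22.2 FPKM and Cst3 had 26.3 and 27.2 FPKM. The 17 B cell genes summed to 57.9 and 37.9 FPKM, of which Cd79b had 11.4 and 9.60 FPKM and Ms4a1, which encodes CD20, had 5.98 and 2.81 FPKM. Pax5, the B lineage regulator, was listed at 0 in both. Immunoglobulin genes were not analysed here. The sum of the B cell genes was higher in WT 1. The class II MHC gene H2-Ab1, which B cells and dendritic cells carry, was likewise higher in WT 1 at 66.0 and 47.6 FPKM. Jchain, a plasma cell gene, had 13.9 and 12.6 FPKM, while Sdc1 had 0.224 and 0 FPKM.

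Myeloid genes summed to 38.5 and 32.6 FPKM over 26 genes. Lyz2, which encodes lysozyme, had 18 and 14.8 FPKM, and S100a9, Ly6g and Elane of neutrophils were listed at 0 in both libraries. The 20 genes of NK and innate lymphoid cells summed to 29.0 and 36.3 FPKM, with Klrd1, which encodes CD94, at 8.65 and 9.42 FPKM and Ncr1, a marker of NK cells, at 0 in both. Haemoglobin genes differed between the libraries, with Hba-a1 at 3.50 and 18.1 FPKM and Hbb-bs at 1.67 and 3.64 FPKM. The platelet list had 13 of 14 genes silent, Pf4 at 0 in both, and the integrin gene Itgb3 at 16.2 and 16.6 FPKM. Of thymocyte genes, Rag1 was at 0 in both, while Dntt, which adds bases at receptor joints, had 3.98 and 3.49 FPKM and Ptcra, the pre-T receptor chain, had 2.52 and 2.99 FPKM.

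**Figure D5:**
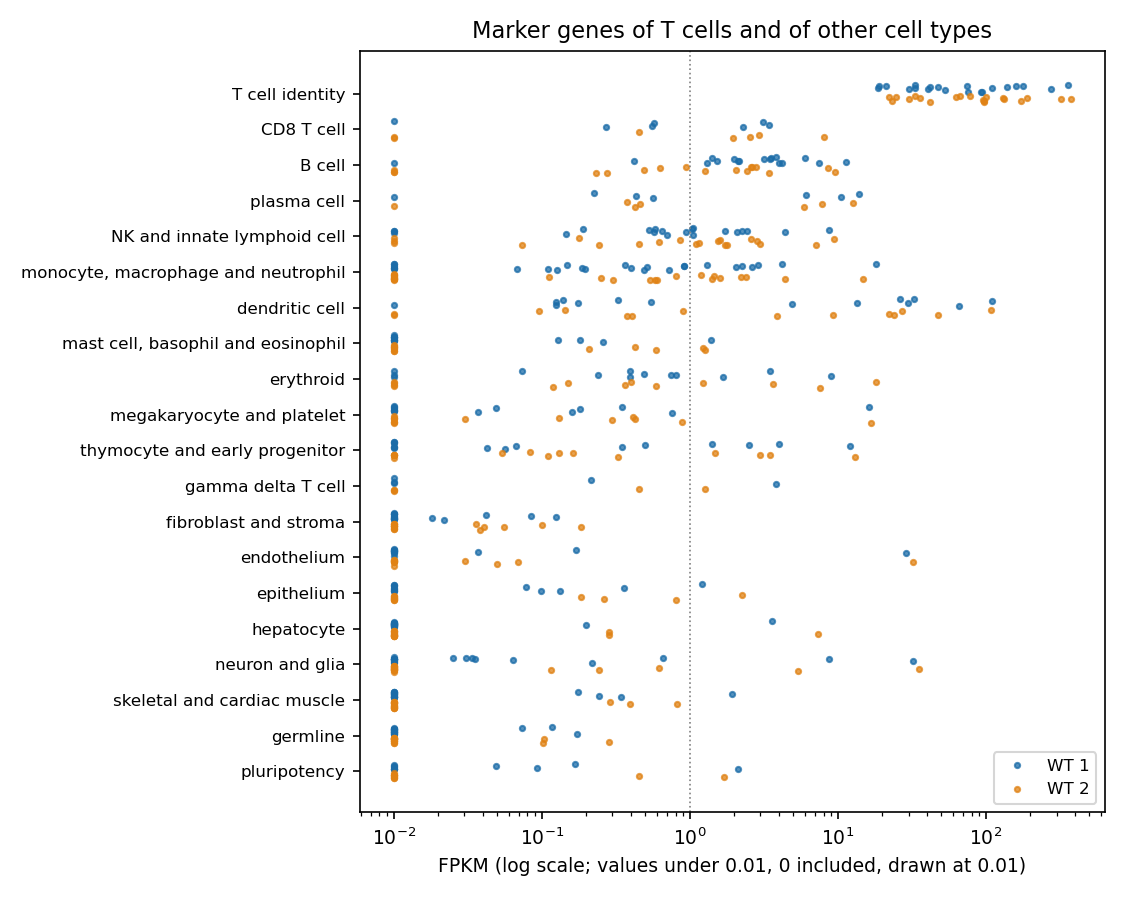
FPKM of every listed marker gene (horizontal axis, log scale, values under 0.01 and 0 drawn at 0.01) by cell type (rows) in WT 1 and WT 2, with a dotted line at 1 FPKM. All 20 T cell identity genes lie right of the line in both libraries, whereas 198 of 267 markers of the other cell types lie left of it in both.

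A silent entry is not proof that a gene is untranslated. Among 289 genes of the ribosome, the mitochondrial ribosome, the proteasome and the respiratory chain, 11 were below 1 FPKM in both libraries. Of these, 6 were at 0 in both. Cox4i2, Cox6b2, Cox7a1, Cox7b2, Psma8, Rpl3l, Rpl10l and Rpl39l are isoforms known from other tissues, but Rpl26, Ndufs5 (0.00318 and 0.00285 FPKM) and Mrpl21 (1.71e-07 and 1.55e-07 FPKM) are general subunits. Of 21863 genes with an annotated length, 1156 had a value above 0 but worth under 0.5 read in at least 1 library, so such near-0 values are not whole reads and do not show absence.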

How the data were processed

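Ribosome footprints of naive CD4+ T cells were measured in WT 1 and WT 2, grouped by their titles. The authors deposited FPKM per gene and library, per the file headers. Tools named are TopHat and Cuffdiff with mm10 (GRCm38), per the submitters' processing notes. Not given in the sources used here are versions, annotation, use of strand, assignment of reads that match several genes and removal of ribosomal RNA, so overlapping genes cannot be told apart with certainty. FPKM hold no read totals. Depth was estimated from the most frequent FPKM times length of 4195 genes with 1 annotated transcript, and on 5 simulated libraries it erred by at most 2.33%. The simulated libraries used the same transcript lengths as the estimate and held no shared reads or Cuffdiff scaling. The error for the deposited table can therefore be larger.

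Gene types, lengths and coordinates came from GENCODE M21 (GRCm38), which matched 22630 genes by symbol, 388 by an older symbol and 44 with several entries, and left 94 unmatched. Length is that of the transcript with the longest coding sequence. Promoter sequences came from RefSeq (GRCm38.p6). Coding lengths replaced the planned protein table, which was not used here. With 1 group of 2 libraries no test was made, and values are given per library. The table's other 2 sample columns were not used. Some listed genes are not reported here.

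The members and gene lists were chosen with earlier results of these data known. The check of constitutive genes and the sums over other cell types were added after the values were seen. Named genes came from the 25 highest, the 20 highest outside ribosomal proteins, the 4 highest and 2 lowest of each class, per other cell type up to 5 markers at or above 1 FPKM and 6 at 0, helper regulators and cytokines, and the 6 least alike between libraries. Others were named after their values were seen. Mitochondrially encoded genes and T cell receptor chain genes were not analysed here. For the former, the list of respiratory chain genes matched no gene of the deposited table. Alternatives changed the gene set, the weighting by length, thresholds, pseudocount and libraries. Software was matplotlib 3.10.9, pandas 2.3.3, numpy 2.4.6 and Python 3.11.15.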

Additional observations from a re-analysis of the deposited data

How the results depend on the processing

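The shares depended mainly on what was summed. Over all genes but small RNAs, ribosomal proteins held 36.3% of the mean, against 30.1% with small RNAs included, 51.1% over protein-coding genes, and, over protein-coding genes too, 24.4% with FPKM times transcript length and 26.3% with FPKM times coding length. The 10 highest genes held 44.7%, against 26.1%, 10.3% and 12.4% in the last 3 of these settings, and 50% of the sum took 16 genes, against 41, 364 and 291. Classes with at least 1% of the sum numbered 5, against 8 and 9 with transcript and coding length. At 5 FPKM in both libraries there were 5318 genes in place of 8823. The median absolute log2 ratio of the libraries was 0.192, against 0.122 with a pseudocount of 5 and 0.0707 with no filter. The median coding length of the highest genes was 183 codons, against 167 for the 50 highest and 204 without ribosomal proteins. TOP-like starts held 42.9%, against 14.3% at the exact start and 28.6% with 6 or more C or T.

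Leaving out a library gave 34.9 to 37.7% for ribosomal proteins, 42.5 to 46.8% for the 10 highest genes, 14 to 19 genes for 50%, 9185 to 9310 genes with footprints, 7932 to 8510 genes at 0, 5 to 6 classes, 207 to 208 silent markers, 183 to 190 codons and 41.6% TOP-like starts in both cases. No paired analysis was possible because no test was made and 1 group was described. Depth limits low values most in WT 2, where 1 FPKM is worth fewer reads.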

Other observations

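Fmo1, a flavin monooxygenase gene known mainly from liver and kidney, had 1581 and 959 FPKM and ranked among the 50 highest protein-coding genes, above Coro1a in WT 1 and below it in WT 2. Its values were a level of the whole gene, and where its footprints lie within it was not analysed here. The 6 genes of at least 10 FPKM on average with the largest ratio between the libraries were Hist1h4n (33.3 and 0.0336 FPKM), Gm22884, which GENCODE types as a snoRNA (27.3 and 0 FPKM), Hba-a1 (3.50 and 18.1 FPKM), Snhg9 (42.9 and 11.7 FPKM), Sh3kbp1 (21.2 and 5.53 FPKM) and Bola2 (16.3 and 55.3 FPKM). Hist1h4n belongs to a family of near-identical copies, and Snhg9 hosts a small RNA. Bola2 (chromosome 7, 126695401 to 126699798) overlaps only the edge of Coro1a (126699773 to 126707787), on the opposite strand. Whether any of these features bears on the differences was not tested. Nanog, a pluripotency gene, had 2.13 and 1.69 FPKM while Pou5f1 and Sox2 were at 0 in both libraries. Long noncoding transcripts also carried signal, with Malat1 at 601 and 540.1 FPKM.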
